A study of Ambystoma mexicanum with 12 samples.

Results

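Laminins, nidogen and integrins were examined in the spinal cord of the axolotl, Ambystoma mexicanum, as the basement membrane and the receptors that hold cells to it. Genes were chosen by symbol alone: every gene of the TPM table named as a laminin chain, as NID1 or NID2, or as an integrin α or β subunit. This gave 39 of 15091 genes, made up of 12 laminin chains, NID2, 18 integrin α subunits and 8 integrin β subunits. NID1 was not analysed here. The symbols are the human names that the authors gave to axolotl transcripts. TPM, a unit of transcript abundance, is scaled for transcript length, so levels can be set against each other between genes.

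The 4 groups held 3 libraries each: 4 dpi inhibitor, 4 dpi control, uninjured inhibitor and uninjured control, where dpi stands for days post-injury. Inhibitor animals received an inhibitor of the microRNA miR-200a and control animals a control inhibitor, so no group was untreated. By the labels, axolotls of 2 to 3 cm were injected in the central canal. For the 4 dpi groups a piece of spinal cord was then cut out, and the injury area was collected 4 days later. The study's text describes the uninjured and the injured tissue as electroporated with the inhibitors, and its general methods give larger animals. Each library pooled tissue of 10 animals, so the spread between libraries is that between pools, and p-values measure only this spread. The labels do not say whether the pools shared clutches or days, and 1 uninjured control library, called S2, has no replicate number. Both control groups held a replicate 1 and neither inhibitor group did, so what this number stands for is partly confounded with treatment.

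Laminins are trimers of an α, a β and a γ chain that assemble into a sheet on the basal side of epithelia, glia, muscle and endothelium, and nidogens tie this sheet to the collagen IV network. Integrins are αβ pairs in the cell membrane. The β1 subunit joins most of the α subunits that bind laminin, collagen and fibronectin, whereas the β2 subunit belongs to leukocytes. In the spinal cord, ependymoglia, the stem cells that line the central canal, reach the outer surface with endfeet that rest on such a basement membrane. These are background statements and not results of the libraries.

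The libraries were whole tissue, in which fewer cells of a type and less RNA per cell cannot be told apart. The 12 ependymoglia and neural stem cell markers were all found and summed to 925 to 4922 TPM, so the defining genes of the labelled tissue were present, and 18 skeletal muscle markers held 0.727 to 5.84% of all transcripts. Muscle markers were highest in uninjured control S2, and neuron and ependymoglia markers were highest in uninjured control replicate 1. Ribosomal protein genes, 80 by symbol, held 13.2 to 16% in 4 dpi inhibitor, 7.23 to 10.8% in 4 dpi control, 14.8 to 17.3% in uninjured inhibitor and 6.09 to 8.71% in uninjured control libraries. Every library adds up to 1000000 TPM and its read depth is unknown. Differences were therefore also taken after median-of-ratios scaling, by which the typical gene is brought to a common level in all libraries.

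Values of the 39 genes ran between 0 and 704 TPM. ITGB1, the shared integrin β1 subunit, had by far the highest mean of the 39, and NID2 and LAMC1 were the only others whose mean over the 12 libraries reached 100 TPM. A mean of 10 TPM or more was reached by 10 genes, 25 lay between 1 and 10 TPM, and 4 lay under 1 TPM. Together the 39 genes held 983 ± 87.1 TPM in 4 dpi inhibitor, 1452 ± 371 TPM in 4 dpi control, 662 ± 143 TPM in uninjured inhibitor and 1173 ± 29.9 TPM in uninjured control (mean ± SD, n = 3 libraries each). The group with the lowest mean was uninjured inhibitor for 34 of the 39 genes, and 4 dpi control replicate 1 was the single highest library for 20 of them.

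**Figure D1:**
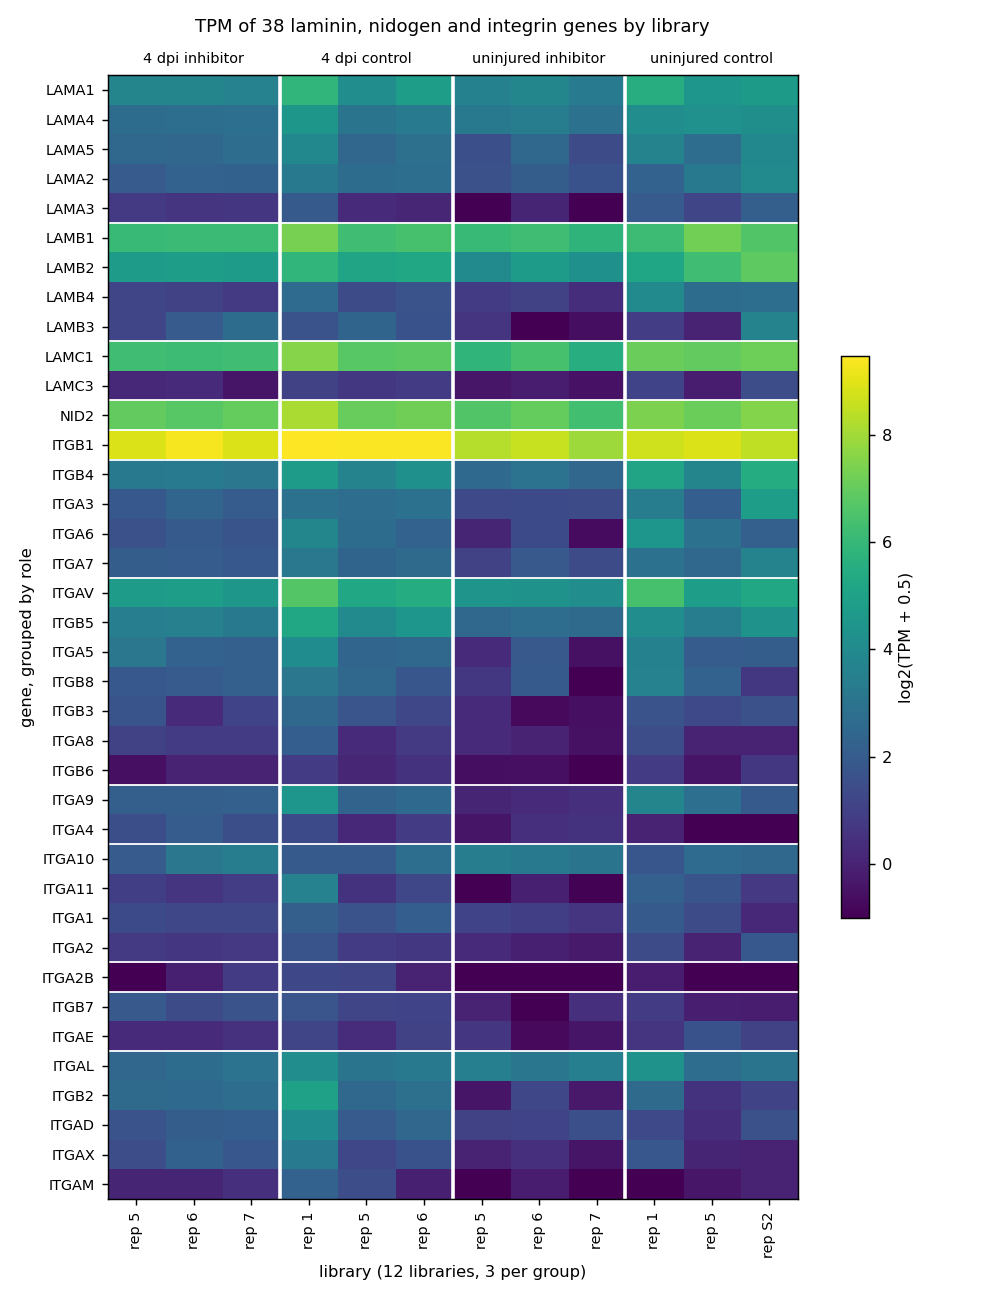
Heat map of log2(TPM + 0.5) for 38 of the 39 genes (rows, grouped by role and ordered by mean within a role) in the 12 libraries (columns, 3 per group). ITGB1 is the brightest row, LAMC1, LAMB1 and NID2 follow, and most rows are darkest in the 3 uninjured inhibitor libraries.

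LAMC1 was the most abundant laminin chain by mean TPM. LAMC1, the γ chain of most laminins, was at 76.0, 70.6 and 75.9 TPM in 4 dpi inhibitor and at 191, 106 and 114 TPM in 4 dpi control. It was at 56.5, 86.1 and 45.8 TPM in uninjured inhibitor and at 135, 124 and 141 TPM in uninjured control. All inhibitor libraries lay below all control libraries at the same stage. The same held for 48.9% of all genes without injury and for 46.8% at 4 dpi. LAMC3, a γ chain of retina and cortex, stayed between 0.208 and 2.28 TPM in all libraries.

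LAMB1, the β chain of early and vascular laminins, was at 66.2, 69.9 and 70.4 TPM in 4 dpi inhibitor and at 158, 76.8 and 85.8 TPM in 4 dpi control. It was at 65.5, 76.4 and 55.2 TPM in uninjured inhibitor and at 71.3, 150.4 and 97.8 TPM in uninjured control, where replicate 1 lay below the highest inhibitor library and the groups overlapped. LAMB2, the β chain of muscle, synaptic and pial basement membranes, was at 15.2, 26.4 and 18.5 TPM in uninjured inhibitor and at 35.4, 75.4 and 117 TPM in uninjured control. All 3 inhibitor libraries were below all 3 controls, and the highest value stood in S2, the library with most muscle marker TPM; the part of muscle in this was not tested. LAMB1 was 3.4 ± 0.8 times LAMB2 in uninjured inhibitor and 1.61 ± 0.676 times LAMB2 in uninjured control libraries, and the ranges of 2.9 to 4.32 in uninjured inhibitor and 0.833 to 2.01 in uninjured control did not overlap. At 4 dpi this ratio ran from 2.49 to 2.7 in inhibitor and from 2.26 to 2.71 in control libraries, with overlap.

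LAMA1 was the most abundant α chain by mean TPM. This chain of embryonic and pial basement membranes was at 12.9, 13 and 11.8 TPM in 4 dpi inhibitor, 58.5, 17.1 and 27.7 TPM in 4 dpi control, 11.7, 13.4 and 9.8 TPM in uninjured inhibitor and 45.7, 21.9 and 25.5 TPM in uninjured control. The 6 inhibitor libraries stayed within a narrow band below all 6 controls. LAMA4, the α chain of endothelium, had the next highest mean, at 5.97, 6.41 and 6.54 TPM in 4 dpi inhibitor, 22.6, 7.6 and 9.28 TPM in 4 dpi control, 8.92, 10.4 and 7.18 TPM in uninjured inhibitor and 17.2, 19.1 and 17.8 TPM in uninjured control. The 9 endothelial markers found of 10 listed summed to 76 to 90.7 TPM in 4 dpi inhibitor, 94.9 to 316 TPM in 4 dpi control, 25.5 to 78.9 TPM in uninjured inhibitor and 39.3 to 275 TPM in uninjured control, with overlap between the uninjured groups, and their part in the LAMA4 values was not tested. LAMA5, of epithelia and vessels, lay between 2.16 and 14.3 TPM and LAMA2, of muscle and pia, between 2.5 and 15.2 TPM over all libraries. LAMA3, of epithelial laminins, was listed at 0, 0.563 and 0 TPM in uninjured inhibitor, against 3.5, 1.75 and 3.98 TPM in uninjured control. NID2 was at 123, 105 and 125 TPM in 4 dpi inhibitor, 280.2, 131 and 145 TPM in 4 dpi control, 99.1, 126 and 77.7 TPM in uninjured inhibitor and 170.2, 136 and 184 TPM in uninjured control, with inhibitor below control at both stages. Over all genes, 48.9% without injury and 46.8% at 4 dpi lay lower in this way. After the scaling the log2 fold change of NID2 lay above 0, at 0.23 without injury and 0.07 at 4 dpi.

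**Figure D2:**
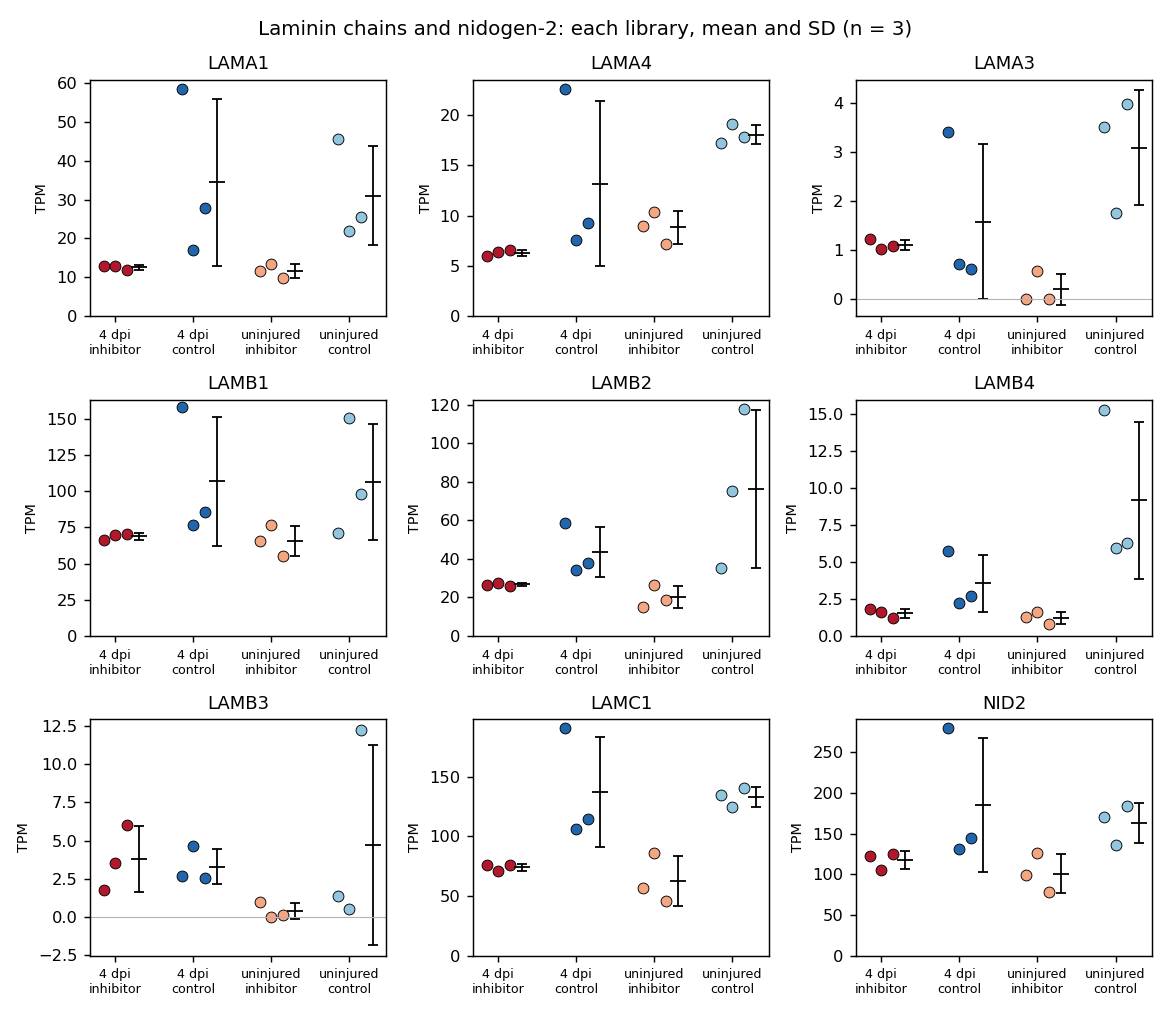
TPM of 8 laminin chains and NID2 in each library (points), with the mean and SD of 3 libraries (bars), in 4 dpi inhibitor, 4 dpi control, uninjured inhibitor and uninjured control. LAMA1, LAMC1 and NID2 lie lower in inhibitor than in control libraries at both stages, and LAMB3, at 1.78 to 6.04 TPM in 4 dpi inhibitor against 2.56 to 4.61 TPM in 4 dpi control, overlaps. Of all genes, 48.9% without injury and 46.8% at 4 dpi lie lower without overlap.

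LAMB3 is an epidermal β chain that assembles with LAMA3, and was chosen for description after its values were seen. LAMB3 was at 1.78, 3.52 and 6.04 TPM in 4 dpi inhibitor and 2.71, 4.61 and 2.56 TPM in 4 dpi control, and LAMA3 at 1.22, 1.01 and 1.06 TPM in 4 dpi inhibitor and 3.39, 0.703 and 0.601 TPM in 4 dpi control, and both chains overlapped between these groups. Summed TPM of the 10 epidermis markers ran from 635 to 1157 in 4 dpi inhibitor, 1192 to 1966 in 4 dpi control, 520 to 626 in uninjured inhibitor and 1472 to 1817 in uninjured control, where S2 was the highest. LAMB3 was also highest in S2 among the uninjured controls, at 12.2 TPM against 1.38 and 0.512 TPM in replicates 1 and 5, and the part of epidermal cells in this was not tested.

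Integrin transcripts were dominated by ITGB1. It was at 487, 645 and 480.0 TPM in 4 dpi inhibitor, 704, 666 and 672 TPM in 4 dpi control, 313, 386 and 246 TPM in uninjured inhibitor and 415, 475 and 350 TPM in uninjured control. The 4 dpi libraries lay above all uninjured libraries of the same treatment. ITGB1 made up 94.1 ± 0.969% of β subunit TPM in 4 dpi inhibitor, 90.8 ± 4.17% in 4 dpi control, 95.5 ± 0.348% in uninjured inhibitor and 87.3 ± 5.73% in uninjured control. Its level was 2.52 to 9.94 times the summed TPM of the 12 α subunits known as its partners.

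ITGAV, the αv subunit of receptors for vitronectin and fibronectin, held between 37.1 and 52.3% of the TPM of those 12 α subunits in every library. It was at 26.4, 27.7 and 22.7 TPM in 4 dpi inhibitor, 102, 36.6 and 43.5 TPM in 4 dpi control, 20.6, 19.7 and 16.8 TPM in uninjured inhibitor and 85.5, 28.8 and 36.7 TPM in uninjured control. Inhibitor was below control at both stages, as it was for 48.9% of all genes without injury and 46.8% at 4 dpi. The replicates numbered 1, which only the control groups held, stood far above the other controls. The laminin receptors were ITGA3, ITGA6 and ITGA7, which pair with β1, and ITGB4, the partner of α6 in hemidesmosomes. Summed, these 4 reached 17.9 to 20.9 TPM in 4 dpi inhibitor, 29.1 to 56 TPM in 4 dpi control, 9.52 to 14.7 TPM in uninjured inhibitor and 29 to 88.6 TPM in uninjured control. ITGB4 led them, at 8.84, 9.12 and 8.31 TPM in 4 dpi inhibitor, 26.9, 12.2 and 18.4 TPM in 4 dpi control, 5.45, 7.31 and 5.04 TPM in uninjured inhibitor and 33.6, 12.9 and 44.3 TPM in uninjured control.

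Other subunits were mostly low. ITGA1 and ITGA2, collagen receptors that are neighbours in the axolotl genome, lay between 0.644 and 4 TPM and between 0.345 and 3.23 TPM over all libraries. ITGA8, a receptor for nephronectin, lay between 0.188 and 3.85 TPM, ITGB6, an epithelial partner of αv, between 0 and 1.26 TPM, and ITGB8, a glial partner of αv, between 0 and 11.9 TPM. ITGAE, the αE subunit of lymphocytes, lay between 0.0971 and 2.59 TPM. The highest library was a control for all 6 of these genes. ITGB5, another partner of αv, was at 10.7, 11.2 and 8.86 TPM in 4 dpi inhibitor, 38.6, 15.7 and 22.2 TPM in 4 dpi control, 5.1, 6.22 and 5.68 TPM in uninjured inhibitor and 17.1, 10.4 and 20.003 TPM in uninjured control, with inhibitor below control at both stages. Beside it, 48.9% of all genes without injury and 46.8% at 4 dpi were lower without overlap.

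**Figure D3:**
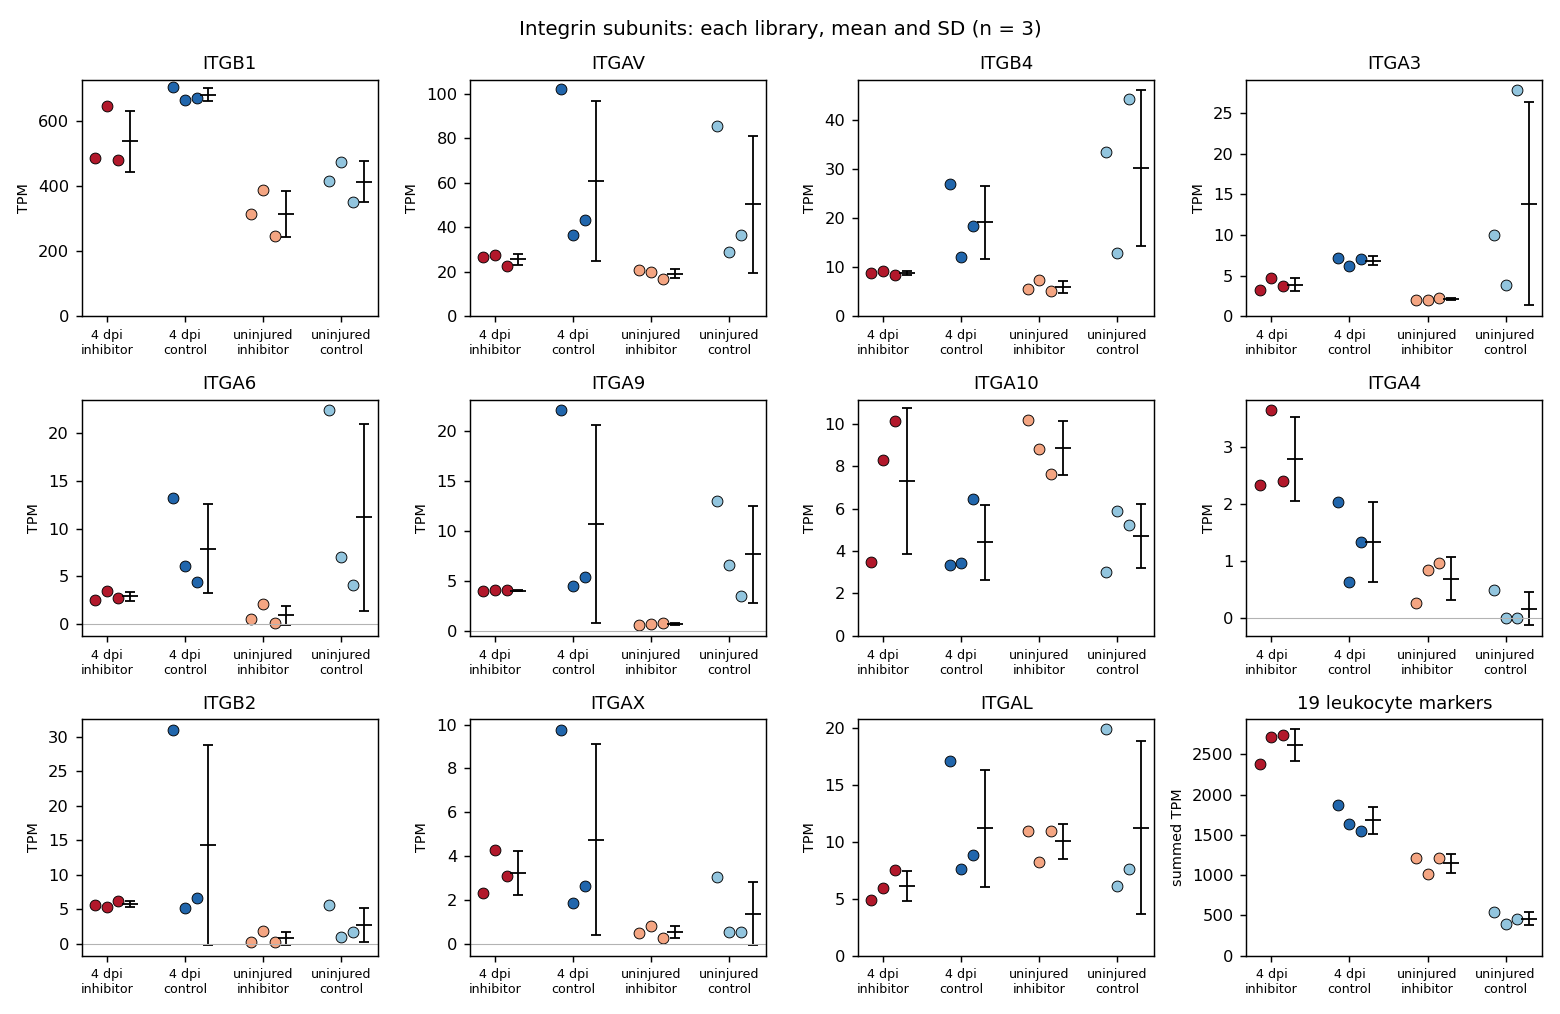
TPM of 11 integrin subunits and, in the last panel, the summed TPM of 19 leukocyte markers in each library (points), with the mean and SD of 3 libraries (bars), by group. ITGA9 is near 0 in the uninjured inhibitor libraries, at 0.561 to 0.817 TPM, and the leukocyte markers separate all 4 groups while ITGB2, ITGAX and ITGAL do not.

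Without injury, the inhibitor group was compared with the control group to ask what the inhibitor changed on its own. Laminin receptors and laminin α chains stood among the lower genes: all 4 laminin-binding subunits and all 5 α chains fell on the deposited TPM, with median log2 fold changes of −2.09 and −1.41. After median-of-ratios scaling 2 of the 4 and 1 of the 5 remained called, with medians of −1.23 and −0.57. On that scale 13.2% of all genes were lower and 15.1% higher, with a median of −0.18. Other roles had fewer calls on the deposited TPM. Lower were 1 of 3 laminin γ chains, 1 of 4 collagen-binding integrins and none of 5 leukocyte β2 integrins. Markers of several cell types fell in the same comparison: 16 of 18 of skeletal muscle, 8 of 14 of neurons, 7 of 10 of epidermis and 8 of 12 of ependymoglia. After the scaling 6, 6, 2 and 2 of these were lower, beside the 13.2% of all genes. By summed TPM, only the epidermis markers among these were lower without overlap, at 520 to 626 TPM in uninjured inhibitor against 1472 to 1817 TPM in uninjured control. The muscle, neuron and ependymoglia sums overlapped between the groups. Sums of the other marker lists, for which no calls are given here, were higher in uninjured inhibitor or overlapped. Leukocyte and macrophage markers summed to 1014 to 1217 TPM in uninjured inhibitor against 390 to 545 TPM in uninjured control. The 6 erythroid markers found of 10 listed summed to 136 to 291 TPM against 15.6 to 32.6 TPM. Fibroblast and meningeal markers overlapped, at 1637 to 3191 TPM against 1751 to 2591 TPM. Muscle markers held 0.727 to 1.48% of all transcripts in uninjured inhibitor and 1.47 to 5.84% in uninjured control libraries, and their part in the laminin and integrin values was not tested. A gene was called when limma gave a Benjamini-Hochberg adjusted p under 0.05 over all genes tested and an absolute log2 fold change above 1, on log2(TPM + 0.5), a scale that understates changes of low genes. Of the 39 genes, all of which passed the filter of 0.5 TPM in 3 libraries, 19 fell, none rose and 20 were not called, and 25 had an unadjusted p under 0.05, which is 64.1%, beside 61.8% of all genes. The 19 make 48.7%, beside 42% of all 14764 genes that were lower and 3.32% that were higher. The count is therefore near the background, and the whole list had a median log2 fold change of −1.22 where all genes had −0.997. The libraries did not overlap for 21 genes lower in inhibitor, 53.8% of the 39, and for 1 higher, 2.56%, beside 48.9% and 8.49% of all genes.

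The lower genes with the largest fold changes in this comparison were integrin subunits and minor laminin chains. ITGA6, the α6 subunit of laminin receptors on neural stem cells and epidermis, was at 0.557, 2.08 and 0.121 TPM in uninjured inhibitor, against 22.4, 6.99 and 4.14 TPM in uninjured control, without overlap (log2 fold change −2.96, SE 0.63, limma adjusted p = 0.0037). ITGA9, which binds tenascin and osteopontin, was at 0.561, 0.718 and 0.817 TPM in uninjured inhibitor against 12.9, 6.56 and 3.45 TPM in uninjured control, again with every inhibitor library lower (−2.59, SE 0.55, limma adjusted p = 0.0037). LAMA3, with the values above, fell by 2.41 on the log2 scale (SE 0.54, limma adjusted p = 0.0047). LAMB4, a β chain lying close to LAMB1 in the axolotl genome, was at 1.3, 1.58 and 0.806 TPM in uninjured inhibitor and at 15.2, 5.91 and 6.29 TPM in uninjured control (−2.38, SE 0.44, limma adjusted p = 0.0024). These 4 genes, ITGA6, ITGA9, LAMA3 and LAMB4, were called lower under all 26 alternative settings. In single settings 7.73 to 48.4% of all genes were lower. How many of all genes were lower in every setting was not counted, so the 4 cannot be set against a background.

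The other called genes did not keep the call under all 26 settings. ITGB4 and ITGB3 kept it after the scaling and, on the deposited TPM, without any 1 library. ITGB4 fell by 2.10 on the log2 scale (SE 0.41, limma adjusted p = 0.0028), and by 1.20 after the scaling. ITGA3, of epithelial laminin receptors, was at 1.95, 2.04 and 2.21 TPM in uninjured inhibitor and at 10.01, 3.81 and 27.8 TPM in uninjured control, where S2 was the highest. ITGA11, a fibroblast receptor for collagen, was at 0, 0.433 and 0.0284 TPM in uninjured inhibitor against 4.14, 2.76 and 1.15 TPM in uninjured control, and ITGB3, the platelet and vascular β3 subunit, at 0.675, 0.103 and 0.176 TPM in uninjured inhibitor against 2.74, 1.98 and 2.52 TPM in uninjured control. ITGA5, the fibronectin receptor, was at 0.7, 3.26 and 0.201 TPM in uninjured inhibitor against 11.7, 3.67 and 3.74 TPM in uninjured control. All 4 had their inhibitor libraries below their controls. LAMB2 fell by 1.78, LAMA1 by 1.31, ITGAV by 1.22 and LAMC1 by 1.13 on the log2 scale. When any 1 library was left out, 12 of the 19 kept their call, and the same count was not made over all genes. ITGA11, ITGA5 and ITGAV lost it without uninjured inhibitor replicate 5 or 7 or uninjured control replicate 1, with adjusted p up to 0.0605, 0.0949 and 0.108. LAMA1 lost it without uninjured inhibitor replicate 7 or uninjured control replicate 1 (up to 0.0613), and LAMC1 without uninjured inhibitor replicate 7, where its fold change was −0.93. LAMA4, just past the fold threshold at −1.004, lost it without any of 4 libraries of the groups compared, and ITGAE without any of 8 libraries.

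After median-of-ratios scaling, which moved the median of all genes to −0.18, 7 of the 39 genes were lower, at 17.9%, beside 13.2% of all 14739 genes tested. They were ITGA6, ITGA9, ITGB4, ITGB3, ITGA11, LAMA3 and LAMB4, and all 7 were also lower on the deposited TPM. ITGA10 and ITGA4 were higher after the scaling only, which makes 5.13% of the 39, beside 15.1% of all genes. ITGA10, the collagen receptor of cartilage, was at 10.2, 8.81 and 7.62 TPM in uninjured inhibitor against 3, 5.9 and 5.22 TPM in uninjured control, with no overlap (log2 fold change 0.89, and 1.74 after the scaling, limma adjusted p = 0.0828 and 0.0125). ITGA4, the α4 subunit of leukocytes and crest cells, was at 0.263, 0.844 and 0.961 TPM in uninjured inhibitor against 0.5, 0 and 0 TPM in uninjured control. The direction of both genes was above 0 on either scale. The main chains LAMB1 and LAMC1, NID2 and ITGB1 lay at 0.30, −0.19, 0.23 and 0.54 after the scaling, against −0.64, −1.13, −0.71 and −0.40 on the deposited TPM, so LAMB1, NID2 and ITGB1 changed sign with the scale and were not called on either. ITGAL, at 0.02, was at 0.93 after the scaling.

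**Figure D4:**
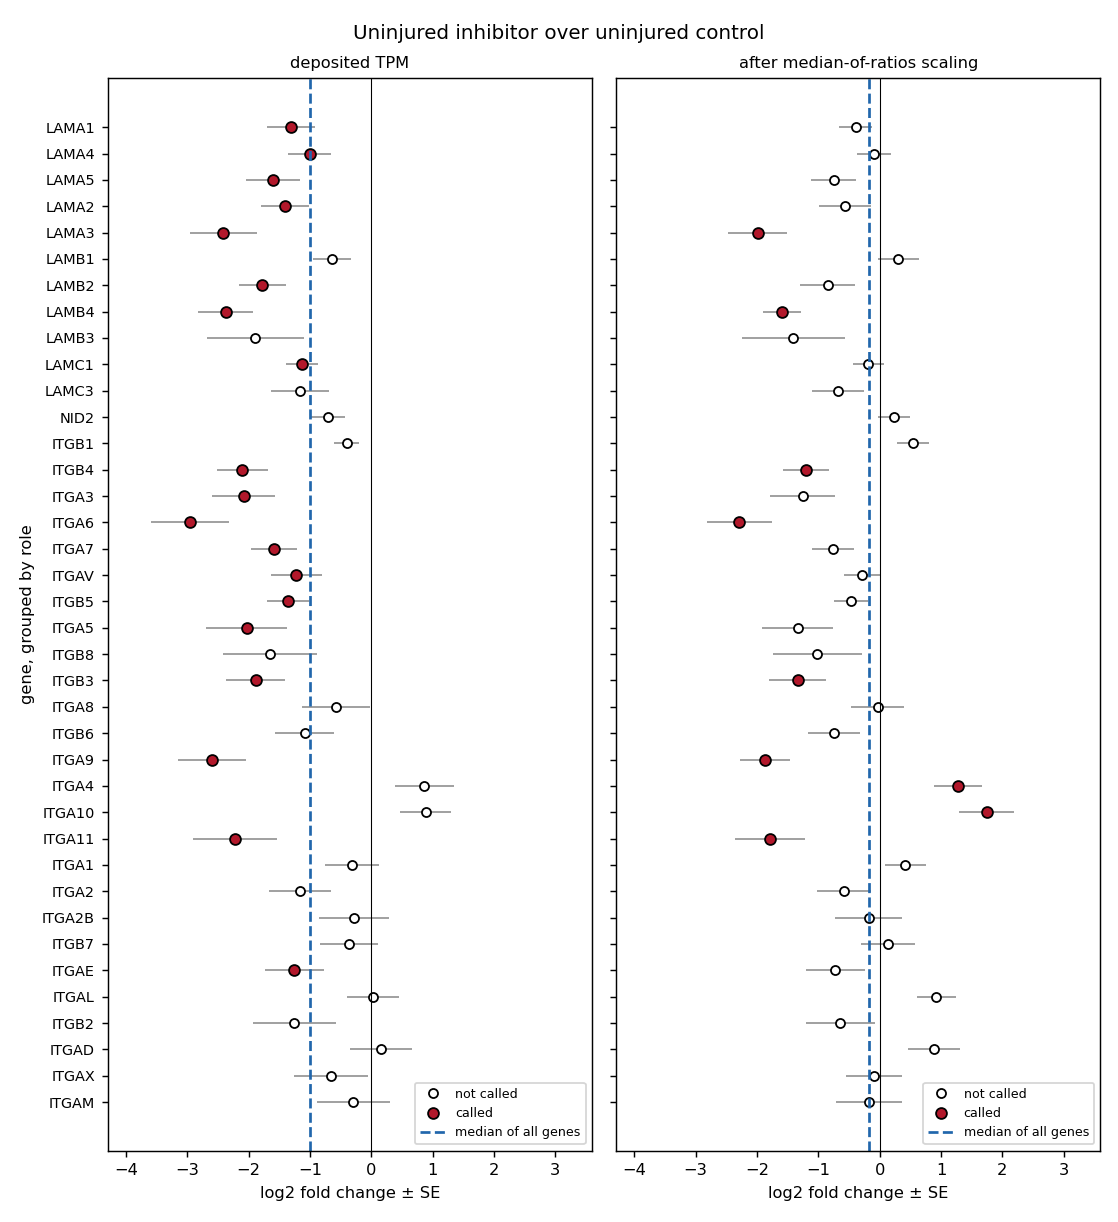
Log2 fold change ± SE of uninjured inhibitor over uninjured control for 38 of the 39 genes, on deposited TPM (left) and after median-of-ratios scaling (right); filled points were called and the dashed line is the median of all genes. On the left 19 points are called, many close to the line at −0.997. On the right 9 are called, with ITGA6 farthest to the left at −2.29.

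At 4 dpi the same question was asked of the injured cords, 4 dpi inhibitor against 4 dpi control. None of the 39 genes was called by limma in either direction, beside 0.21% of all genes higher and 1.67% lower, nor after the scaling, beside 0.0746% higher. On the deposited TPM 7 had an unadjusted p under 0.05, which is 17.9%, below the 32.4% of all genes. Of these, LAMA1 (−1.24, adjusted p = 0.0732), ITGB5 (−1.18, adjusted p = 0.063), LAMC1 (−0.83, adjusted p = 0.0731), ITGAV (−1.08), ITGB4 (−1.02) and LAMA4 (−0.85) lay below. After the scaling the 39 genes had a median of −0.15 where all genes had −0.06. The groups did not overlap for 2 genes higher and 20 lower in inhibitor, 5.13% and 51.3% of the 39, beside 6.62% and 46.8% of all genes, so these shares were near the background too. Among the higher genes was ITGA4, at 2.32, 3.63 and 2.39 TPM in 4 dpi inhibitor against 2.03, 0.639 and 1.34 TPM in 4 dpi control.

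Several genes that fell without injury were below their controls at 4 dpi as well, though none was called. On the deposited TPM 46.8% of all genes were lower without overlap, and the median of all genes was −0.62. After the scaling, where that median was −0.06, the laminin-binding integrins had a median of −0.29 and the laminin β chains 0.03. The values below are on the deposited TPM. ITGA9 was at 3.95, 4.04 and 4.07 TPM in 4 dpi inhibitor against 22.0, 4.48 and 5.39 TPM in 4 dpi control, where replicate 1 was far above the others. ITGA6 was at 2.5, 3.43 and 2.76 TPM in 4 dpi inhibitor against 13.2, 6.05 and 4.45 TPM in 4 dpi control, and LAMB4 at 1.8, 1.6 and 1.21 TPM in 4 dpi inhibitor against 5.74, 2.2 and 2.69 TPM in 4 dpi control, and like ITGA9 neither overlapped. LAMB2 was at 26.6, 27.6 and 26.1 TPM in 4 dpi inhibitor against 58.4, 34.0 and 38.0 TPM in 4 dpi control, and ITGA3 at 3.18, 4.75 and 3.67 TPM in 4 dpi inhibitor against 7.18, 6.21 and 7.08 TPM in 4 dpi control, again without overlap. ITGA5 was at 8.47, 4.33 and 4.1 TPM in 4 dpi inhibitor against 16.4, 4.82 and 5.13 TPM in 4 dpi control, ITGB3 at 2.76, 0.715 and 1.65 TPM in 4 dpi inhibitor against 5.2, 2.92 and 1.83 TPM in 4 dpi control, and ITGA11 at 1.41, 0.991 and 1.38 TPM in 4 dpi inhibitor against 11.9, 0.945 and 1.82 TPM in 4 dpi control. These 3 overlapped, as did ITGA10 at 3.48, 8.27 and 10.1 TPM in 4 dpi inhibitor against 3.34, 3.42 and 6.44 TPM in 4 dpi control.

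Alternatives moved a few of these 4 dpi calls. Fitted without 4 dpi control replicate 5, ITGB5 and LAMA1 were called lower, without uninjured control replicate 1 ITGAV was called as well, and without S2 only ITGB5, in settings where 6.92%, 11.4% and 7.97% of all genes were lower. The limma test of whether the inhibitor's effect at 4 dpi differed from that without injury called none of the 39, beside 0.0271% of all genes. An unadjusted p under 0.05 was given for 3 genes, which is 7.69%, beside 6.7% of all genes, among them LAMA3 (difference of log2 fold changes 2.30) and LAMB4 (1.48), each with an adjusted p of 0.658.

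Injury was examined in control cords, 4 dpi control against uninjured control. None of the 39 genes was called by limma, beside 0.874% of all genes higher and 0.061% lower, nor after the scaling, beside 0.848% higher and 0.0882% lower. On the deposited TPM 9 had an unadjusted p under 0.05, which is 23.1%, beside 10.5% of all genes. Of these 9, LAMB4 lay at a log2 fold change of −1.22 (SE 0.44, adjusted p = 0.322) and ITGB1 at 0.73 (SE 0.21, adjusted p = 0.157). The other 7 belong mainly to blood cells: ITGB2, ITGAD, ITGAM, ITGAX, ITGA2B of platelets, ITGB7 of lymphocytes, and ITGA4. Not all blood cell integrins were higher. ITGAL had a mean of 11.2 TPM in both groups, and ITGAE 1.38 TPM in 4 dpi control against 1.72 TPM in uninjured control, each with overlap. ITGA2B was at 1.88, 1.77 and 0.529 TPM in 4 dpi control against 0.397, 0 and 0 TPM in uninjured control (log2 fold change 1.54, SE 0.57, limma adjusted p = 0.332), and ITGB7 at 2.88, 1.76 and 1.67 TPM in 4 dpi control against 1.25, 0.417 and 0.405 TPM in uninjured control (1.17, SE 0.47, limma adjusted p = 0.398). Both lay above all uninjured controls, as did ITGAD, a β2 partner of macrophages, at 16.4, 3.51 and 5.03 TPM in 4 dpi control against 1.96, 0.786 and 2.55 TPM in uninjured control (1.76, SE 0.51, limma adjusted p = 0.172). In all, 5 genes higher at 4 dpi did not overlap, 12.8% of the 39, beside 7.63% of all genes. These were ITGA2B, ITGA4, ITGAD, ITGB1 and ITGB7. ITGB1 did not overlap between the groups, with 666 to 704 TPM in 4 dpi control and 350 to 475 TPM in uninjured control. The main chains lay near 0 on the log2 scale, LAMC1 at −0.0071 (SE 0.26), LAMB1 at −0.0024 (SE 0.31), LAMA1 at 0.04 (SE 0.39) and NID2 at 0.11 (SE 0.28). LAMB4, with the values above, lay lower at 4 dpi without overlap, the single gene of the 39 to do so, at 2.56%, beside 1.98% of all genes. After the scaling and without S2, ITGAD was called higher, beside 1.97% of all genes. After the scaling and without uninjured control replicate 1, LAMB2 was called lower, at −1.30, beside 0.294% of all genes.

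Under the inhibitor, 4 dpi inhibitor was compared with uninjured inhibitor to see injury in the inhibitor's presence. This comparison shares the uninjured inhibitor libraries with that of uninjured inhibitor and uninjured control. None of the 39 genes was called by limma, beside 0.406% of all genes higher and 0.0271% lower, nor after the scaling, beside 0.773% higher and 0.482% lower. On the deposited TPM 36 log2 fold changes were above 0, which is 92.3%, beside 68.2% of all genes. An unadjusted p under 0.05 was given for 13, all higher at 4 dpi, which is 33.3%, beside 17.6% of all genes. The median of the 39 was 0.74, beside 0.26 for all genes, and 0.54 beside 0.02 after the scaling. The libraries did not overlap for 23 genes higher at 4 dpi, 59% of the 39, beside 28.7% of all genes, and for ITGAL and LAMA4 lower at 4 dpi, 5.13%, beside 9.1% of all genes.

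LAMB3 was at 1.78, 3.52 and 6.04 TPM in 4 dpi inhibitor against 0.972, 0 and 0.148 TPM in uninjured inhibitor (2.33, SE 0.79, limma adjusted p = 0.175). ITGA9 was at 3.95, 4.04 and 4.07 TPM in 4 dpi inhibitor against 0.561, 0.718 and 0.817 TPM in uninjured inhibitor, with close replicates in both groups (1.92, SE 0.55, limma adjusted p = 0.125). ITGA6 was at 2.5, 3.43 and 2.76 TPM in 4 dpi inhibitor against 0.557, 2.08 and 0.121 TPM in uninjured inhibitor (1.501, SE 0.63, limma adjusted p = 0.25). ITGB7 was at 3.34, 2.1 and 2.66 TPM in 4 dpi inhibitor against 0.527, 0 and 0.841 TPM in uninjured inhibitor, at 1.84 on the log2 scale, and ITGA2B was listed at 0 in all 3 uninjured inhibitor libraries and at 0, 0.443 and 1.26 TPM at 4 dpi. ITGA5, with the values above, lay at 1.99 and ITGB1 at 0.78 on that scale. Without uninjured inhibitor replicate 6, ITGA5 and ITGB2 were called higher, at 2.67 and 2.99, without uninjured control replicate 1 ITGB7 was called, and without S2 LAMB3 was. In these settings 2.94%, 1.55% and 2.21% of all genes were higher. After the scaling, 5, 7 and 2 genes were called without uninjured control replicate 1, S2 or 4 dpi control replicate 1, among them ITGA9 and ITGB2 each time, beside 2.14%, 3.2% and 0.827% of all genes higher. The fits after the scaling without single libraries were chosen after seeing the data.

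**Figure D5:**
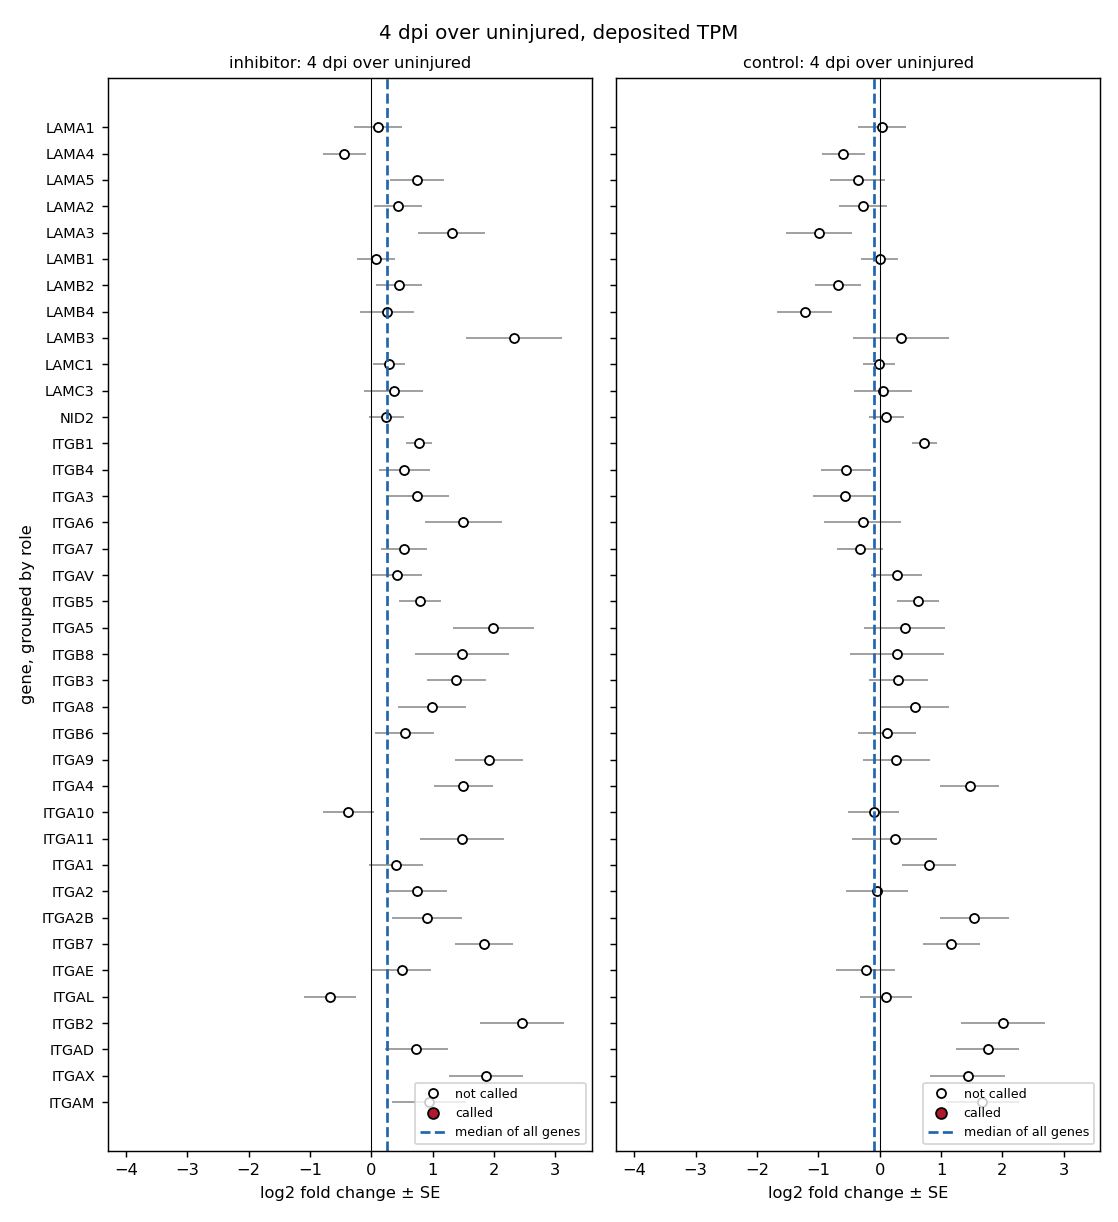
Log2 fold change ± SE of 4 dpi over uninjured libraries for 38 of the 39 genes, in inhibitor (left) and control cords (right), on deposited TPM; the dashed line is the median of all genes and no gene was called. On the left 35 of 38 points lie above 0, with ITGB2 at 2.46 and LAMB3 at 2.33, and on the right the points above 1 are those of blood cell integrins.

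Leukocyte integrins, ITGB2 with its partners ITGAL, ITGAM and ITGAX, were kept apart because they are known as integrins of invading and resident blood cells. ITGB2, the common β2 subunit, was at 5.63, 5.42 and 6.21 TPM in 4 dpi inhibitor, 31, 5.25 and 6.69 TPM in 4 dpi control, 0.26, 1.85 and 0.316 TPM in uninjured inhibitor and 5.58, 0.959 and 1.73 TPM in uninjured control. The 4 dpi inhibitor libraries were above the uninjured inhibitor libraries, whereas in the controls uninjured replicate 1 lay above the lowest 4 dpi library, so that those groups overlapped, and 4 dpi control replicate 1 stood far above the rest. ITGAX, of macrophages and dendritic cells, was at 2.3, 4.27 and 3.09 TPM in 4 dpi inhibitor, 9.75, 1.85 and 2.64 TPM in 4 dpi control, 0.487, 0.817 and 0.254 TPM in uninjured inhibitor and 3.03, 0.55 and 0.535 TPM in uninjured control. ITGAM, of granulocytes and macrophages, was at 0.569, 0.548 and 0.869 TPM in 4 dpi inhibitor, 4.43, 2.3 and 0.436 TPM in 4 dpi control, 0, 0.368 and 0 TPM in uninjured inhibitor and 0, 0.272 and 0.53 TPM in uninjured control. Both α subunits had their highest value in 4 dpi control replicate 1. ITGAL, the α subunit of lymphocytes, was at 4.9, 5.96 and 7.52 TPM in 4 dpi inhibitor, 17.1, 7.64 and 8.89 TPM in 4 dpi control, 11, 8.22 and 10.9 TPM in uninjured inhibitor and 19.97, 6.09 and 7.65 TPM in uninjured control, so that its 4 dpi inhibitor libraries lay below its uninjured inhibitor libraries.

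With all libraries, neither the deposited TPM nor the median-of-ratios scaling gave a call for any of the 4 leukocyte integrins in the fit over all groups. ITGAL was called higher in uninjured inhibitor than in uninjured control with quantile normalization (log2 fold change 1.08) and after the scaling without uninjured control replicate 1 (1.22). In these settings 11.7% and 12.6% of all genes were higher. In 4 dpi inhibitor against uninjured inhibitor, ITGB2 was called higher in 6 and ITGAX in 4 of the 26 alternative settings. Over all 26, between 0.0475 and 8.5% of all genes were higher there in a single setting. On the deposited TPM limma gave ITGB2, ITGAM and ITGAX in control cords and ITGB2 and ITGAX in inhibitor cords an unadjusted p under 0.05 for injury. At 4 dpi in control cords ITGB2 lay at a log2 fold change of 2.01 (SE 0.68, limma adjusted p = 0.282), and in inhibitor cords at 2.46 (SE 0.68, limma adjusted p = 0.119). Their summed TPM was 13.4 to 17.7 in 4 dpi inhibitor, 17 to 62.2 in 4 dpi control, 11.3 to 11.7 in uninjured inhibitor and 7.87 to 28.6 in uninjured control. The 19 leukocyte and macrophage markers, all found, summed to 2383 to 2741 TPM in 4 dpi inhibitor, 1543 to 1871 TPM in 4 dpi control, 1014 to 1217 TPM in uninjured inhibitor and 390.0 to 545 TPM in uninjured control, without overlap between any of them. The integrin sums overlapped between inhibitor and control at both stages. ITGAL made up most of the uninjured inhibitor sum, at 8.22 to 11 TPM beside 0.26 to 1.85 TPM of ITGB2. ITGAL was lower in 4 dpi than in uninjured inhibitor without overlap, as were 9.1% of all genes, but was not called. The marker sum was higher at 4 dpi, so the 2 lay in opposite directions there. Reads shared between such related subunits as ITGAM, ITGAX and ITGAD may have been divided among them in the authors' counting, which was not tested.

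Partners of the basement membrane and of integrins were also examined in the inhibitor comparison without injury. Of 27 tested basement membrane partners, 18 fell and none rose, with a median log2 fold change of −1.44, and 10 were lower after the scaling. COL17A1, the collagen of hemidesmosomes, was at 0.962, 4.61 and 0.0877 TPM in uninjured inhibitor against 60.3, 18.3 and 58.1 TPM in uninjured control (log2 fold change −4.63, SE 0.72, limma adjusted p = 0.0018). It was at 18, 23.1 and 17 TPM in 4 dpi inhibitor, above all uninjured inhibitor libraries, and was called higher there after the scaling. SMOC2, a matricellular protein, and BCAM, a receptor for laminin α5, also fell (−3.50 and −3.17). Among 41 genes of the adhesion machinery inside the cell, 26 fell and none rose, and after the scaling 12 were lower and 3 were higher. CD151, a membrane partner of the laminin-binding integrins, was at 1.24, 5.07 and 0.562 TPM in uninjured inhibitor against 38.1, 20.4 and 14.5 TPM in uninjured control (−3.40), and ZYX and FERMT1, of focal adhesions, fell by 3.19 and 2.30. Among 20 other integrin ligands, 4 fell and none rose, with THBS1 (−3.95), FN1 (−1.40) and NPNT (−1.90) as examples, and after the scaling 2 were lower and 4 were higher. Beside these counts, 42% of all genes were lower and 3.32% higher on the deposited TPM. In limma 70.4% of the basement membrane partners and 78% of the adhesion genes had an unadjusted p under 0.05. Over all genes this share was 61.8%, and for the other integrin ligands it was 20%. After the scaling 13.2% of all genes were lower and 15.1% higher.

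Elsewhere the partner lists gave few calls. THBS2, a thrombospondin named after its values were seen, was the single gene of the 3 lists called on deposited TPM in a comparison other than uninjured inhibitor against uninjured control. It was at 204, 99.5 and 108 TPM in 4 dpi control against 37.4, 47 and 35.7 TPM in uninjured control, and rose by a log2 fold change of 1.70 (SE 0.33, limma adjusted p = 0.024). The 3 lists held 27, 41 and 20 tested genes, and 0.874% of all genes were higher in that comparison. In 4 dpi inhibitor against 4 dpi control no listed gene was called on deposited TPM, while 16, 14 and 5 genes of the basement membrane, adhesion and ligand lists had an unadjusted p under 0.05 in limma. These are 59.3%, 34.1% and 25%, beside 32.4% of all genes. In 4 dpi inhibitor against uninjured inhibitor none was called either, and 4, 19 and 8 genes of those lists had such a p, which is 14.8%, 46.3% and 40%, beside 17.6% of all genes. After the scaling COL17A1, FERMT1, ZYX and FGA, a fibrinogen chain, were called higher there, beside 0.773% of all genes.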

How the data were processed

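Spinal cord RNA was extracted with Trizol and sequenced. TPM per gene were deposited by the authors. Tools named in the authors' processing notes, with no role stated, were RSEM 1.1.6, DESeq2 1.16.1 and Bowtie 0.12.1. Build and transcriptome: not given in the sources used here. Each library sums to 1000000 TPM, and no count test was run.

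A gene was tested if 3 or more libraries held 0.5 TPM. The transform log2(TPM + 0.5) was fitted with limma 3.58.1 in R 4.3.3 over all 12 libraries, with a variance trend, no covariate and Benjamini-Hochberg adjustment over all genes within each comparison. A call required a log2 fold change beyond 1 either way besides the adjusted p below 0.05; for the interaction the p alone counted. The code was tested on simulated data. Python 3.11.15 and matplotlib 3.10.9 drew the figures.

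Members and lists were chosen with earlier results of these data known. Values in every library were given for members called in the comparisons (for uninjured inhibitor, the 10 with the largest fold change at a mean of at least 1 TPM), the most abundant member of each role, the 4 leukocyte integrins and members called on both scales. LAMB3, LAMA4, ITGA4, ITGAD, ITGB5 and THBS2 were added after their values were seen. From the partner lists at most 3 called genes each were named. For 34 of the 39 members RefSeq gave a symbol, and its axolotl assembly UKY_AmexF1_1 was used only for which genes neighbour each other. A check by gene length was not run. For 1 of the 39 members, counted in all totals, values are not reported here.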

Additional observations from a re-analysis of the deposited data

How the results depend on the processing

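Of 26 alternative settings, 4 were added after seeing the data (the scaling without each uninjured control library or without 4 dpi control replicate 1). Over all 26, the member values kept their call, or the lack of one, in 4799 of 4996 cases. Most of these were values without a call that stayed so, because members were called only in uninjured inhibitor against uninjured control. The total therefore says little about the calls, and of the 19 called members only 4 kept their call throughout. Values that were not called could change sign and still be counted as kept. In uninjured inhibitor against uninjured control, 19 members were lower. The number was 9 with a replicate block (beside 33.3% of all genes), 4 lower and 4 higher with quantile normalization (beside 7.73% and 11.7%), and 7 lower and 2 higher with median-of-ratios scaling. Leaving out 1 library gave 12 to 21 lower on the deposited TPM, beside 29.5 to 48.4% of all genes. After the scaling it gave 5 to 7 lower (6 without uninjured control replicate 5) and 1 to 3 higher. Beside these, 9.59 to 15.4% of all genes were lower and 12.6 to 16.6% higher. LAMA4 was above 0 in this comparison with quantile normalization (0.063) and, after the scaling, without uninjured control replicate 5 (0.0096) or S2 (0.029); the cause was not tested. In 4 dpi control against uninjured control, where no member was called, the replicate block called 3 higher (ITGAD, ITGAX and ITGB2) and 1 lower (LAMB4), beside 2.76% and 3.53% of all genes. Leaving out 1 library after the scaling called 0 to 1 higher and 0 to 1 lower, beside 0.661 to 1.97% and 0.129 to 0.6% of all genes. In 4 dpi inhibitor against 4 dpi control, a fit of the compared libraries alone called 1 higher (beside 0.461%), and leaving out 1 library called 0 to 3 lower (beside 0 to 11.4%). In 4 dpi inhibitor against uninjured inhibitor, the compared libraries alone called 5 higher (beside 3.1% of all genes) and the replicate block 10 (beside 8.5%). Leaving out 1 library called 0 to 2 higher (beside 0.0475 to 2.94%), or 0 to 7 after the scaling (beside 0.681 to 3.2%). Deviations of same-numbered libraries correlated at 0.51 and 0.27 between the control groups, above the −0.42 to 0.23 of differently numbered pairs. They correlated at 0.09 between the uninjured groups, at −0.06 and 0.11 between the 4 dpi groups, and at −0.22, −0.24 and −0.02 between the inhibitor groups. In each of these comparisons some differently numbered pairs correlated higher. Equal numbers thus went with like deviations between the control groups only, and what the numbers stand for is not given. TPM give no depth, so values under about 1 TPM have an unknown counting error.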
